A study of Bos taurus with 8 samples.

Results

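Collagens are the main fibrous proteins of the lung, and the transcripts of collagen chains and of the enzymes that modify them were measured in newborn calves. Genes were taken by symbol: every chain named COL, a number, A and a number, the lysyl hydroxylases (PLOD), the prolyl 4-hydroxylase catalytic subunits (P4HA), P3H1, CRTAP, SERPINH1, PCOLCE, PCOLCE2 and BMP1. Of 56 bovine RefSeq symbols of this kind, 27 were reached through the accession of a probe, with 95 probes, and the other 29 are not analysed here. A probe is called detected on an array where the scanner software marked its signal as well above background, and was kept when detected on 4 or more of the 8 arrays. Of the 95 probes, 83 were kept. They stood for 26 genes of 9867 measured: 6 fibrillar chains, 4 basement membrane chains, 6 other chains and 10 enzymes or enzyme partners. COL26A1 was left out, because its probes were detected on at most 3 arrays. Where a gene had several kept probes, the brightest stood for it.

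The lungs came from 4 cloned Holstein calves with respiratory failure and from 4 naturally conceived, healthy Holstein calves, which served as the comparison. All 8 are labelled as 4 days old, and the design text gives the clones' deaths as falling in those first days of life. Each calf gave 1 array. The donor cells of the clones, and each clone's exact age at death, are not given in the sources used here.

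A collagen molecule is a rope of 3 chains, each built of repeats of glycine and 2 further residues, often proline and hydroxyproline. In the endoplasmic reticulum, P4HA enzymes hydroxylate prolines so that the rope is stable, PLOD enzymes hydroxylate lysines for later cross-links, P3H1 modifies single prolines, and the chaperone SERPINH1 holds the folded rope. Outside the cell, procollagen ends are trimmed, with PCOLCE as an enhancer, before fibrils form. In the lung, fibrils of types I and III give the alveolar wall and airways tensile strength, and type IV networks form the basement membrane between epithelium and capillary.

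Levels are given as log2 of the processed signal minus the 75th percentile of the same array. Differences are clone minus normal on this log2 scale, and a level of 1 probe is not set against that of another. The share of detected spots was 78.8% to 80.6% in clones and 80.4% to 83.5% in normal calves. The arrays of normal calves correlated with each other at r of 0.984 to 0.989 and those of clones 2 and 4 at 0.988, while clones 1 and 3 each reached at most 0.926 and 0.931 with any other clone. All clones lay on 1 slide and all normal calves on another, so slide and group cannot be told apart. The 7 spike-in controls detected on every array were all higher in clones, by a median of 0.68. The differences below are therefore relative to the other lung transcripts of the same array, and with arrays centred on the spike-ins each of them would be lower by 0.68, which turns the sign of those between 0 and 0.68. In whole lung, a change in the number of collagen-making cells and a change in RNA per cell cannot be told apart. COL1A1 and COL3A1, the markers of collagen-producing tissue, were detected in all 8 lungs.

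No collagen chain or modifying enzyme passed the test between clones and normal calves. Of the 26 genes 0 had an adjusted p under 0.05 (limma, adjusted over 35636 probes), where 0.182% of all genes did, 0.0405% higher and 0.142% lower, and 0.177% of all probes. Their adjusted p lay between 0.172 for COL1A1 and 0.975 for COL4A3. The log2 difference was above 0 in 20 of the 26 and below 0 in 6, with a median of 0.44, against a median of -0.016 over all genes, of which 48.4% were above 0, while with arrays centred on the spike-ins 7 of the 26 were above 0. Before adjustment, 8 genes were higher and 2 lower in clones at a p under 0.05, while 6.37% and 6.58% of all genes were. Those higher were COL1A1, COL3A1, COL18A1, COL6A2, PCOLCE, PLOD1, P3H1 and P4HA1, and those lower were COL11A2 and COL17A1. This count of 10 was 6 without clone 4 or without normal calf 2, 15 without clone 3, and 8 with quantile normalization, where COL3A1 was no longer among them. With arrays centred on the spike-ins the count was 7, and none of the 8 genes listed as higher was among them.

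The clones differed among themselves. By the brightest probe, in 0 of the 26 genes did every clone lie above, or every clone below, every normal calf. Over all genes, 5.05% and 4.76% did, and the counts that follow also use the brightest probe. Other kept probes of COL1A1, COL3A1, COL6A2, P4HA1 and COL18A1 include some on which every clone lay above every normal calf. The share of all probes that did so was not counted. In 15 genes, or 57.7%, exactly 3 of the 4 clones lay above every normal calf, against 16.9% of all genes. The clone that did not was clone 3 in 6 of them (COL1A1, COL1A2, COL3A1, PCOLCE, P4HA2 and PLOD3), clone 1 in 6 (COL4A1, COL4A3, COL18A1, PLOD1, P3H1 and P4HA1), clone 2 in 3 (COL6A1, COL6A2 and COL8A1) and clone 4 in 0. Over all genes that exception was clone 1 in 8.28%, clone 3 in 6.07%, clone 2 in 1.42% and clone 4 in 1.11%. These placements use the percentile centring and were not counted with arrays centred on the spike-ins. The array of clone 1 or clone 3 bore on the calls. Without clone 1, COL18A1 and PLOD1 passed the test, while 7.19% of all probes did, and without clone 3 PCOLCE passed, while 1.27% of all probes did. With both left out, a choice made after the data were seen, 13 of the 26 genes passed, 12 of them higher in clones, while 31.8% of all probes passed. Only 2 clones then remained. Array weights, which gave clones 1 and 3 the lowest weights, led to 16 genes called, 12 of them higher, while 32.3% of all probes were called.

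**Figure D1:**
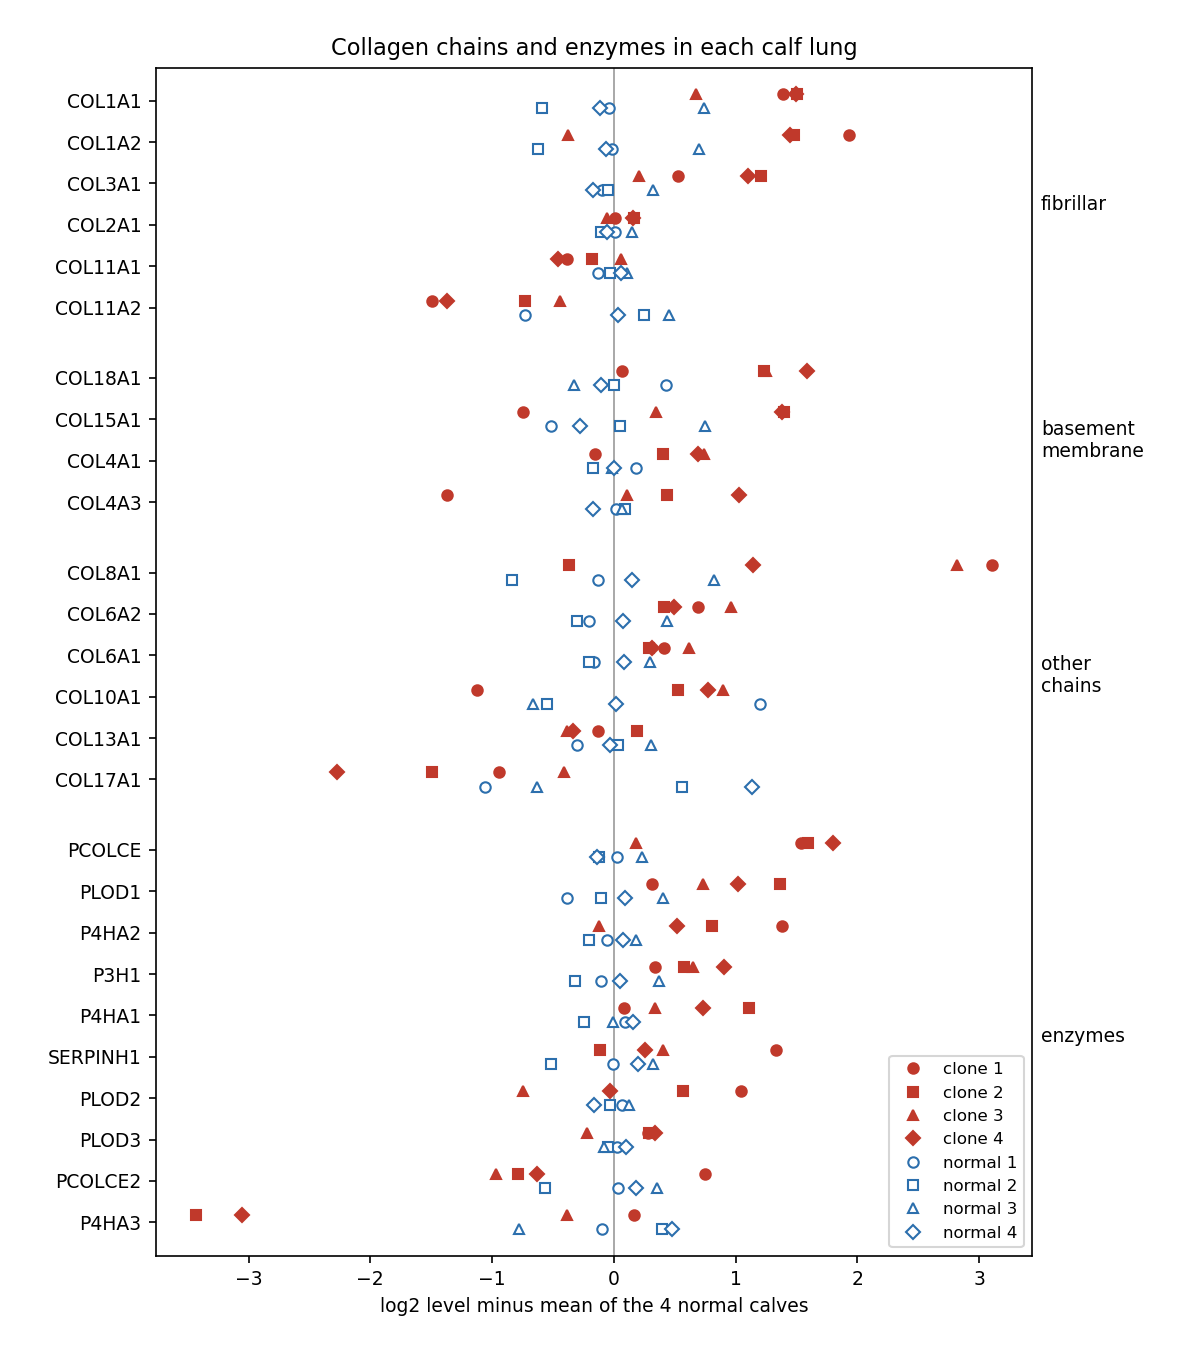
Level of each gene in each calf lung, as log2 level minus the mean of the 4 normal calves (x axis), with genes down the page by class; filled red symbols are clones 1 to 4 and open blue symbols normal calves 1 to 4. Each gene is shown by its brightest probe. On these probes, in 0 of 26 genes are the clones and normal calves fully separated. The clone that does not lie above every normal calf is clone 3 for COL1A1, COL1A2 and COL3A1 but clone 1 for COL4A1, COL4A3 and COL18A1.

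Among the fibrillar chains, those of types I and III stood highest in clones relative to normal calves. The median difference of the 6 measured was 0.41 (-0.27 with arrays centred on the spike-ins). COL1A1, the α1 chain of type I collagen, measured 3.82, 3.93, 3.10 and 3.93 in clones 1 to 4, against 2.38, 1.84, 3.17 and 2.32 in normal calves 1 to 4. Clone 3 lay just below normal calf 3, and the other 3 clones lay above every normal calf. The difference was 1.27 (SE 0.32, 95% interval 0.55 to 1.99, adjusted p = 0.172), or 2.41-fold, with group levels of 3.70 ± 0.40 in clones and 2.43 ± 0.55 in normal calves (SD, n = 4 each). COL1A2, the α2 chain of the same molecule, measured 5.42, 4.97, 3.11 and 4.94 in the clones, against 3.48, 2.87, 4.19 and 3.42 in the normal calves. Its difference was 1.12 (SE 0.50, 95% interval -0.03 to 2.27, adjusted p = 0.392). Clone 3 lay below 3 of the 4 normal calves here, and without it the difference was 1.62 (adjusted p = 0.0559). COL3A1, the single chain of type III collagen, measured 5.30, 5.98, 4.98 and 5.88 in the clones, against 4.68, 4.73, 5.10 and 4.61 in the normal calves. The groups met only where clone 3 lay below normal calf 3, and the difference was 0.76 (SE 0.26, 95% interval 0.17 to 1.35, adjusted p = 0.264). It was 0.48 both with quantile normalization and in the authors' deposited table.

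The cartilage-type fibrillar chains were dim in both groups. COL2A1 is the chain of type II collagen. Its brightest probe lay between -3.70 and -3.48 in clones and between -3.76 and -3.50 in normal calves. The difference on that probe was 0.07 (95% interval -0.28 to 0.42). The other kept probes of COL2A1 varied more between calves. On 1 of them the clones measured -8.81, -2.77, -3.97 and -3.27, and the normal calves -5.89, -5.06, -4.93 and -2.16. Its difference was -0.19 (SE 1.35), and it was detected in 3 of 4 clones. Another gave the same order of calves, with a difference of -0.0054 (SE 1.17). COL11A2, a chain of type XI collagen, measured -7.01, -6.25, -5.95 and -6.89 in clones and -6.25, -5.27, -5.06 and -5.48 in normal calves, and was detected in 2 of 4 clones and 4 of 4 normal calves. Clones 1 and 4 lay below every normal calf and clones 2 and 3 only above normal calf 1. Its difference of -1.01 (adjusted p = 0.252) rests in part on values near background. COL11A1, the α1 chain of type XI, was detected in 3 of 4 clones and in all normal calves, with a difference of -0.24 (adjusted p = 0.611). Of the 3 measured cartilage markers COMP, MATN1 and HAPLN1, 0 were higher in clones, and their summed linear level ranged from 0.0870 to 0.165 in clones and from 0.0969 to 0.254 in normal calves. Their part in the values of these chains was not tested.

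The 4 basement membrane chains had a median difference of 0.51 (-0.17 with arrays centred on the spike-ins). By the brightest probe, clone 1 was the lowest clone in each. COL18A1, whose C-terminal piece is endostatin, measured 4.18, 5.35, 5.37 and 5.70 in clones 1 to 4, against 4.54, 4.12, 3.79 and 4.01 in normal calves 1 to 4. Clones 2, 3 and 4 lay above every normal calf and clone 1 among them. The difference was 1.03 (SE 0.34, 95% interval 0.26 to 1.81, adjusted p = 0.249), or 2.05-fold, and without clone 1 it was 1.36 (adjusted p = 0.0203). All 6 kept probes of COL18A1 had differences between 0.81 and 1.05, but they did not all place clone 1 alike. On 1 of them the clones measured -1.04, -1.33, -1.16 and -1.06 and the normal calves at most -1.69. There clone 1 was the highest clone and every clone lay above every normal calf. COL4A1, the α1 chain of the type IV network found in nearly all basement membranes, measured 4.39, 4.94, 5.28 and 5.23 in clones, against 4.72, 4.37, 4.52 and 4.54 in normal calves. Clone 1 was lower than 3 of the normal calves, and the others were higher than all 4. The difference was 0.42 (SE 0.23, 95% interval -0.11 to 0.94, adjusted p = 0.489), and 0.21 both with quantile normalization and in the authors' deposited table.

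COL4A3, a type IV chain of the alveolar and glomerular basement membrane and the autoantigen of Goodpasture disease in humans, measured 0.25, 2.05, 1.72 and 2.65 in clones, against 1.63, 1.71, 1.69 and 1.44 in normal calves. The normal calves lay close together, while clone 1 lay far below them and the other 3 clones above. The group means therefore almost cancelled, with a difference of 0.05 (95% interval -0.98 to 1.08, adjusted p = 0.975), and without clone 1 it was 0.52 (adjusted p = 0.204). COL15A1, a collagen that links basement membrane to the fibrils beneath it, measured -2.13, 0.014, -1.04 and -0.0071 in clones, against -1.90, -1.33, -0.64 and -1.67 in normal calves, a difference of 0.59 (adjusted p = 0.671). Clone 1 was again lowest and clones 2 and 4 were above every normal calf. The difference was 1.04 without clone 1, 0.33 without clone 2 or without clone 4, and 0.22 with normexp background correction. The summed linear level of the 5 measured endothelial markers PECAM1, CDH5, TEK, CLDN5 and KDR was 35.9, 90.9, 228 and 114 in clones 1 to 4 and between 88.6 and 102 in normal calves. Clone 1 was thus lowest in these markers too. Their part in the basement membrane values was not tested.

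The 6 remaining chains had a median difference of 0.34 (-0.34 with arrays centred on the spike-ins). COL6A1 and COL6A2, partners in the beaded filaments of type VI collagen around cells, showed the same order of clone 2 and normal calf 3. COL6A2 measured 1.16, 0.88, 1.43 and 0.96 in clones, against 0.26, 0.16, 0.90 and 0.54 in normal calves, a difference of 0.64 (SE 0.22, adjusted p = 0.270). COL6A1 measured 5.98, 5.85, 6.18 and 5.88 in clones, against 5.40, 5.36, 5.86 and 5.64 in normal calves, a difference of 0.41 (SE 0.18, adjusted p = 0.391), and 0.087 with quantile normalization. In both genes clone 2 lay just under normal calf 3 and every other clone lay above every normal calf. COL8A1, a short-chain collagen of vessel walls, measured 1.00, -2.48, 0.71 and -0.96 in clones, against -2.24, -2.94, -1.28 and -1.96 in normal calves. Clones 1 and 3 were well over all normal calves and clone 2 was among them. The difference was 1.67 (SE 0.75, 95% interval -0.03 to 3.38, adjusted p = 0.389). It was 1.02 with normexp background correction, and 0.39 without both clones 1 and 3.

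COL17A1, the transmembrane collagen of hemidesmosomes in basal epithelial cells, measured -5.93, -6.48, -5.39 and -7.26 in clones, against -6.05, -4.43, -5.62 and -3.86 in normal calves. It was detected in 2 of 4 clones and all 4 normal calves, with a difference of -1.28 (SE 0.56, adjusted p = 0.378). The spread within each group was wide and the ranges overlapped. COL10A1, known from growth cartilage, ranged from -5.57 to -3.56 in clones and from -5.11 to -3.25 in normal calves, and COL13A1, a transmembrane collagen of cell adhesions, from 1.73 to 2.30 in clones and from 1.81 to 2.42 in normal calves. Their differences were 0.27 and -0.16 (adjusted p = 0.881 and 0.789).

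Of the 10 enzymes and their partners, 8 had a difference above 0 and 2 below, with a median of 0.52 (-0.16 with arrays centred on the spike-ins). PCOLCE, which speeds removal of the C-terminal propeptide, measured 1.65, 1.71, 0.29 and 1.91 in clones, against 0.14, -0.010, 0.35 and -0.026 in normal calves. Clone 3 lay among the normal calves and the other 3 clones lay far above them. The difference was 1.28 (SE 0.35, 95% interval 0.49 to 2.07, adjusted p = 0.191), or 2.42-fold, and without clone 3 it was 1.64 (adjusted p = 0.0154). PLOD1, a lysyl hydroxylase of the triple helix, measured 2.91, 3.96, 3.33 and 3.62 in clones, against 2.22, 2.49, 3.00 and 2.69 in normal calves. Clone 1 was below normal calf 3 alone. The difference was 0.86 (SE 0.27, adjusted p = 0.238), and without clone 1 it was 1.04 (adjusted p = 0.0459). P3H1, the prolyl 3-hydroxylase, measured 0.015, 0.26, 0.33 and 0.58 in clones, against -0.42, -0.64, 0.055 and -0.27 in normal calves, a difference of 0.62 (SE 0.21, adjusted p = 0.263). Only clone 1 was not above all normal calves.

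The prolyl 4-hydroxylase subunits did not go the same way. P4HA1 measured -0.094, 0.93, 0.16 and 0.55 in clones, against -0.085, -0.42, -0.19 and -0.020 in normal calves, a difference of 0.57 (SE 0.25, adjusted p = 0.375). By this probe, clone 1 lay among the normal calves and the other clones above all of them. On a second probe of P4HA1 the clones measured -1.97, -1.53, -1.91 and -1.75 and the normal calves at most -2.50, so every clone lay above every normal calf. P4HA2 ranged from 1.81 to 3.32 in clones and from 1.73 to 2.12 in normal calves, a difference of 0.64 (adjusted p = 0.421). P4HA3 measured -2.20, -5.80, -2.75 and -5.42 in clones, against -2.46, -1.97, -3.15 and -1.89 in normal calves. Clones 2 and 4 lay far below every normal calf, and clones 1 and 3 lay among them. The difference was -1.68 (95% interval -3.53 to 0.18, adjusted p = 0.431). It was -1.07 with normexp background correction and -1.09 without clone 2. The second probe of P4HA3 gave the same order, with -4.72, -8.38, -5.39 and -8.06 in clones 1 to 4 and between -5.75 and -4.35 in normal calves, though it was detected in 2 of 4 clones.

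SERPINH1, the collagen chaperone, measured 4.02, 2.58, 3.09 and 2.94 in clones, against 2.69, 2.17, 3.01 and 2.89 in normal calves, a difference of 0.47 (SE 0.33, adjusted p = 0.602). Clone 1 was far above the rest, and without it the difference was 0.18. PLOD2, the lysyl hydroxylase of the telopeptides, measured -0.43, -0.90, -2.22 and -1.51 in clones, against -1.40, -1.50, -1.35 and -1.64 in normal calves. The normal calves were close together, clones 1 and 2 were above them and clone 3 below, and the difference was 0.21 (adjusted p = 0.855). PLOD3, which also adds sugars to hydroxylysine, and PCOLCE2, a relative of PCOLCE, had differences of 0.17 and -0.41 (adjusted p = 0.743 and 0.713).

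**Figure D2:**
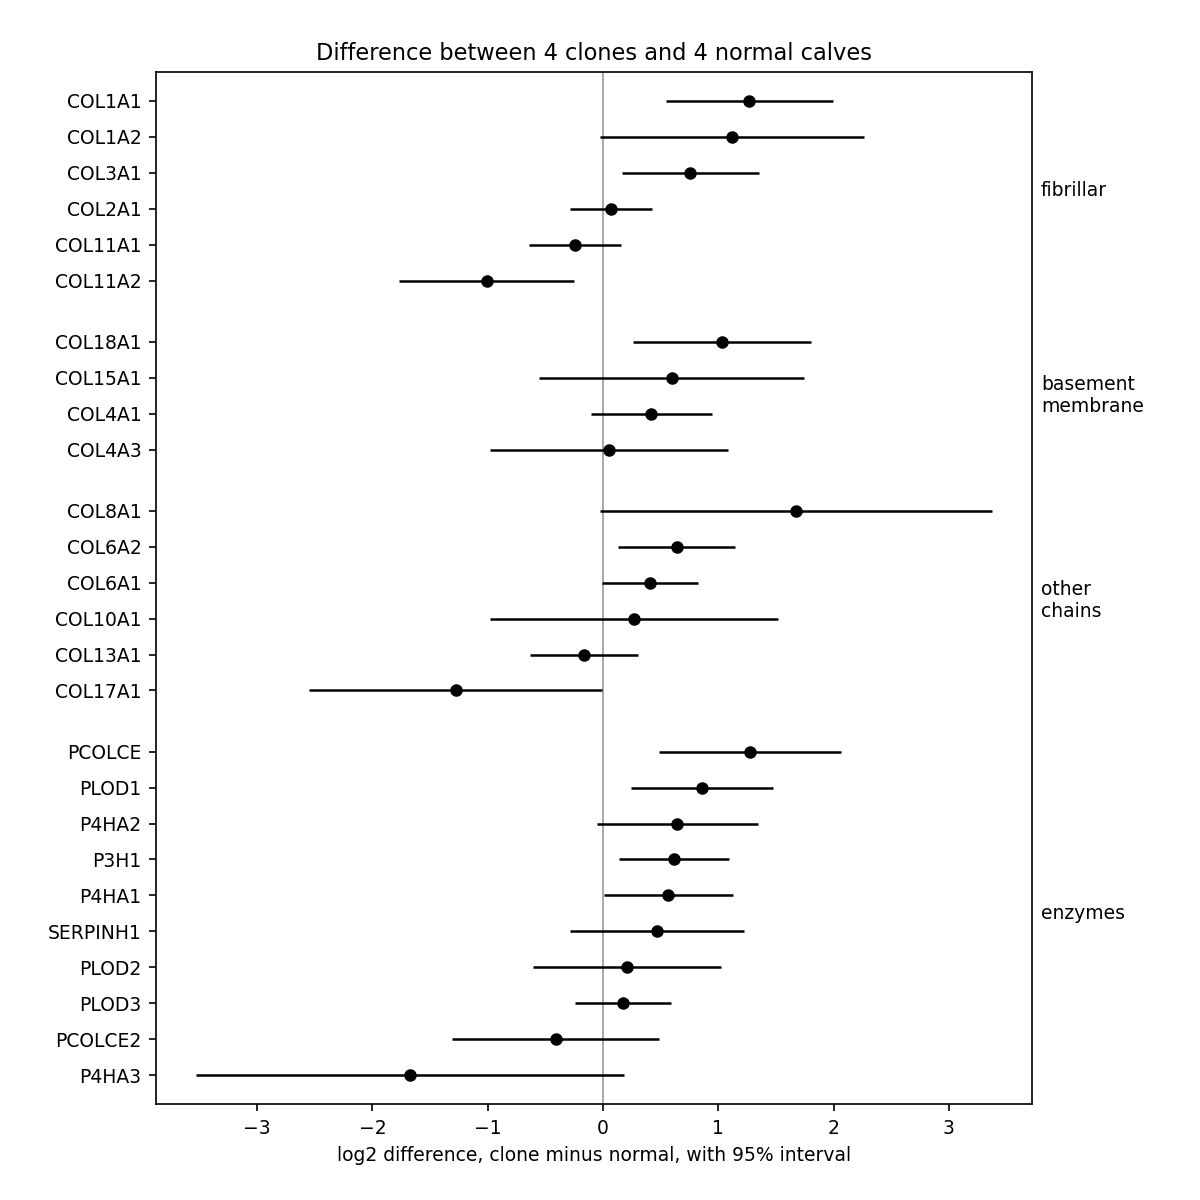
Log2 difference between the 4 clones and the 4 normal calves for each gene (x axis, clone minus normal), with its 95% interval from limma, by class down the page. The difference is above 0 in 20 of 26 genes, and COL8A1 and P4HA3 have the widest intervals; with arrays centred on the spike-ins 7 would be above 0.

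The classes differed in which animals stood out. The mean over the 4 basement membrane chains, taken relative to the normal calves, was -0.55, 0.87, 0.61 and 1.17 in clones 1 to 4, while the normal calves lay between -0.14 and 0.12. For the 10 enzymes and partners it was 0.72, 0.20, -0.014 and 0.18 in the clones and between -0.18 and 0.11 in the normal calves. Clone 1 was therefore the lowest animal for basement membrane chains and had the highest mean for the enzymes. That mean included P4HA3, which was far lower in clones 2 and 4, and by the median over the 10 genes clone 2, at 0.57, was just above clone 1, at 0.54. The 6 fibrillar chains gave 0.33, 0.57, 0.011 and 0.40 in the clones and between -0.19 and 0.41 in the normal calves. The 6 other chains gave 0.34, -0.07, 0.75 and 0.02 in the clones and between -0.22 and 0.24 in the normal calves. The SD was larger in clones than in normal calves in 19 of the 26 genes, or 73.1%, against 91.1% of all genes.

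Among the normal calves, calf 3 was most often the highest, though not for basement membrane chains. It was the highest of the 4 in 18 of the 26 genes, or 69.2%, against 25.0% of all genes, and calf 2 was the lowest in 12, or 46.2%, against 22.3% of all genes. By class it was the highest normal calf in 6 of 6 fibrillar chains, 4 of 6 other chains and 7 of 10 enzymes, but in 1 of 4 basement membrane chains, and it was the lowest normal calf for COL18A1. It was the highest in COL1A1, COL1A2, COL3A1, COL6A1, COL6A2, PCOLCE, PLOD1, P3H1 and P4HA2, in each of which 1 clone lay below it and 3 above. Without it the difference of COL1A1 was 1.52 and that of COL1A2 1.35, and still 0 genes passed the test. Among the clones, clone 3 was the lowest in 10 genes, or 38.5%, and clone 1 in 9, or 34.6%, near the 34.2% and 31.3% of all genes.

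**Figure D3:**
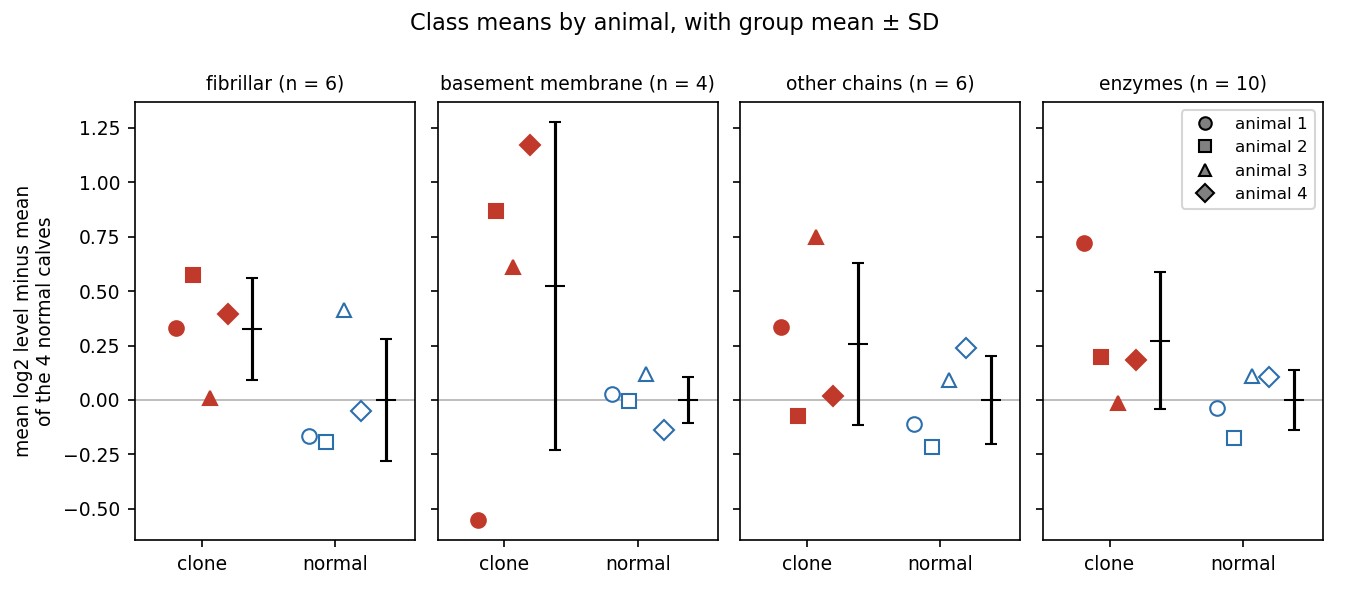
Mean log2 level of each class in each calf, relative to the mean of the 4 normal calves (y axis), with clones in red and normal calves in open blue symbols and the animal number given by the shape; bars beside the points are the group mean ± SD (n = 4 each). Clone 1 lies at -0.55 in basement membrane chains and at 0.72 in the enzymes.

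Chains that share a molecule, a fibril or, for COL4A1 and COL4A3, only a collagen type were also compared within each array, where centring cancels. Only the change of such a ratio between calves has a meaning, not its size. Of 5 ratios chosen, 3 could be formed from the chains measured. COL1A1 minus COL1A2 was -1.60, -1.03, -0.010 and -1.01 in clones 1 to 4, and between -1.11 and -1.02 in the normal calves. The 4 normal calves and clones 2 and 4 thus kept nearly the same ratio, from which clone 1 departed downward and clone 3 upward. The group means differed by 0.15 (exact permutation test, 2-sided, p = 0.657, adjusted 0.657). COL1A1 minus COL3A1 was -1.49, -2.05, -1.88 and -1.95 in clones, against -2.30, -2.89, -1.93 and -2.29 in normal calves, a difference of 0.51 (exact permutation p = 0.0857, adjusted over 3 ratios 0.257, higher in 4 of 4 clones than in 3 of 4 normal calves). It was 0.65 without normal calf 3 (exact p = 0.0286) and 0.68 with quantile normalization (exact p = 0.0286), both unadjusted and both the smallest that so few calves can give. It was 0.33 with the mean of all kept probes (exact p = 0.143), 0.33 without normal calf 2 (exact p = 0.171) and 0.39 without clone 1 (exact p = 0.171). COL4A1 minus COL4A3 was 4.14, 2.89, 3.55 and 2.58 in clones, against 3.09, 2.66, 2.83 and 3.10 in normal calves, a difference of 0.37 (exact permutation p = 0.429, adjusted 0.643).

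The probes of a gene mostly agreed in sign. Of the 83 kept probes, 71 had a difference above 0, or 85.5%, against 47.9% of all kept probes, and 34 had an unadjusted p under 0.05, or 41%, against 13.2% of all. Probes of 1 gene share a transcript and are not independent. All 10 probes of COL3A1 were above 0, from 0.19 to 0.78, as were all 5 of COL1A1, from 0.31 to 1.27, and all 6 of COL1A2, from 0.72 to 1.16. All 4 probes of COL8A1 lay between 0.87 and 1.67. Probes split in sign only for COL2A1 (2 above and 2 below 0) and PLOD3 (2 above and 3 below). The lowest adjusted p of any kept probe was 0.119, for a second probe of P4HA1 with a difference of 0.83.

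**Figure D4:**
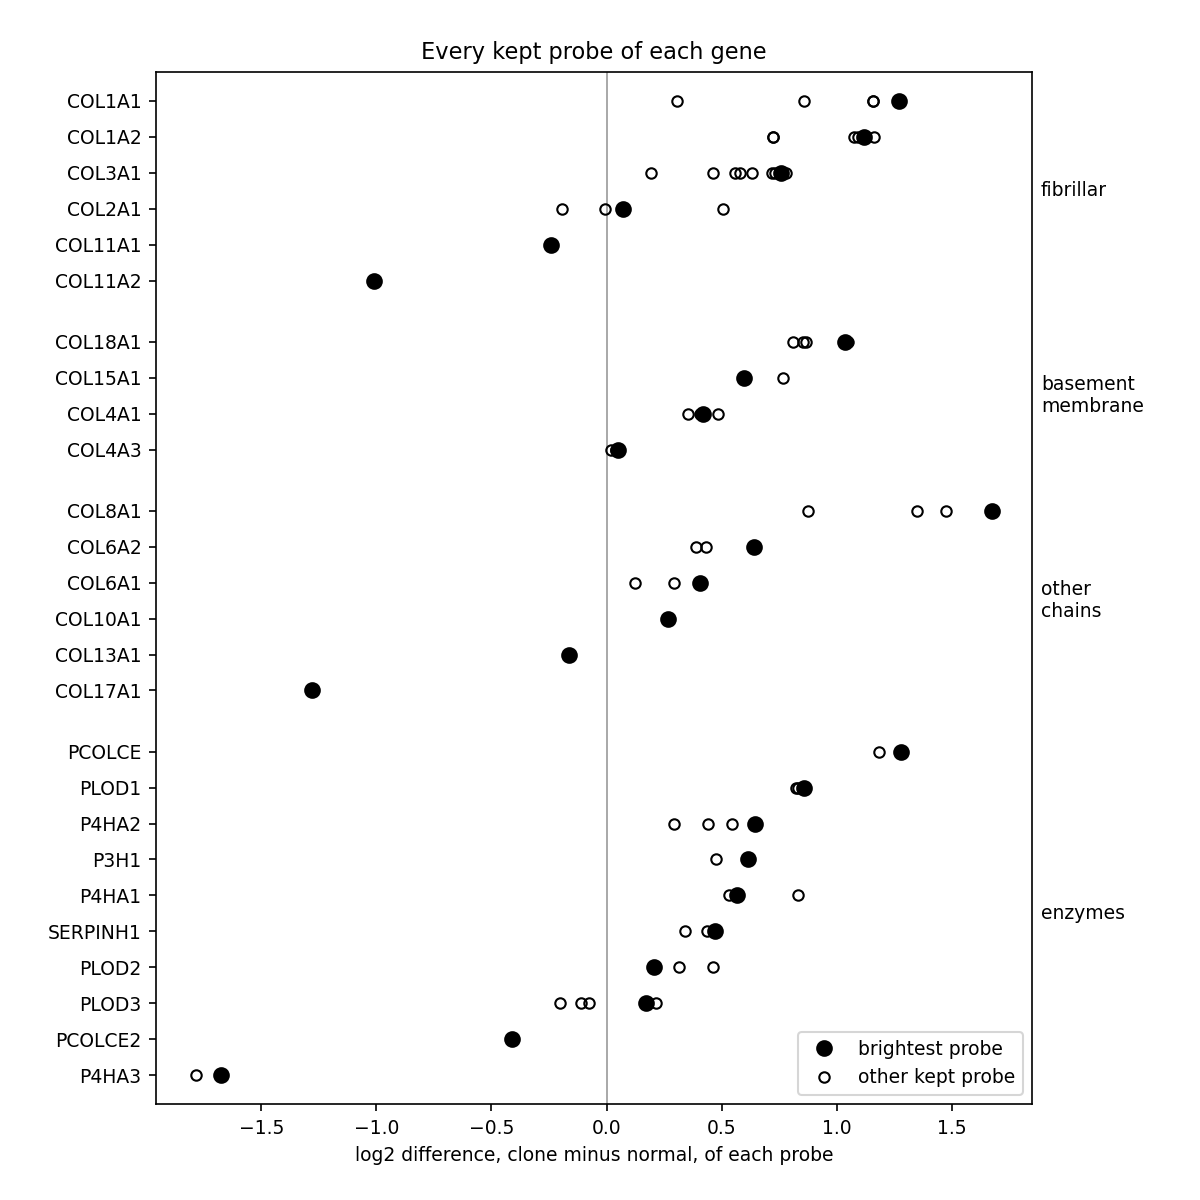
Log2 difference (x axis, clone minus normal) of every kept probe of each gene, by class down the page; large filled circles are the brightest probe, which stands for the gene, and small open circles the other kept probes. All probes of a gene lie on the same side of 0 except for COL2A1 and PLOD3.

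Of 54 further genes of collagen folding, export, cleavage, cross-linking, fibril binding, induction and uptake, 41 were measured and 0 passed the test in either direction. The median difference of these 41 was 0.28, with 31 above 0, or 75.6%, and 10 below. Over all genes the median was -0.016, 48.4% were above 0 and 0.182% passed the test. With arrays centred on the spike-ins each difference would be lower by 0.68, which would put the median of the 41 below 0. The 4 with the smallest p were TGFB3, CCN2, FMOD and ADAMTS3. TGFB3, a transforming growth factor that induces collagen genes in fibroblasts, measured 0.06, 0.39, -0.42 and 0.20 in clones, against -0.58, -0.95, -1.30 and -1.39 in normal calves. Every clone lay above every normal calf, with a difference of 1.11 (SE 0.25, adjusted p = 0.141). CCN2, a matricellular growth factor that stiff matrix and TGF-β signalling induce, measured 2.97, 2.85, 1.48 and 3.02 in clones, against 3.91, 4.12, 4.17 and 3.90 in normal calves. Here every clone lay below every normal calf, with a difference of -1.44 (SE 0.34, adjusted p = 0.157). CCN2 passed the test without clone 1 (-1.57, adjusted p = 0.0475), while 7.19% of all probes did. It also passed without clone 3 (-1.08, adjusted p = 0.0270), while 1.27% of all probes did.

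FMOD, fibromodulin, a leucine-rich proteoglycan that binds type I fibrils, measured 0.29, 1.36, -0.08 and 1.81 in clones, against -1.47, -1.20, -0.11 and -0.40 in normal calves. The groups did not overlap, by a narrow gap between clone 3 and normal calf 3, and the difference was 1.64 (SE 0.48, adjusted p = 0.211). ADAMTS3, a procollagen N-propeptidase, was detected in 0 of 4 clones and 4 of 4 normal calves, so it was kept through the normal calves alone and its p is given as a description. It was at least 1.53-fold lower in clones, setting the normal mean against a detection floor in the clones, and the fit to the measured values, at -6.63 in clones and -5.70 in normal calves, gave an adjusted p of 0.220. Of the lysyl oxidases, which cross-link fibrils, LOX and LOXL2 had differences of 0.77 and 0.59 and LOXL4 of -1.48, while LOXL1 and LOXL3 were at 0.011 and -0.0055. The proteoglycans DCN and LUM, among the standard markers of fibroblasts, were at -0.11 and 0.24.

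Of the 9 fibroblast markers outside the collagens, 7 had a difference above 0 and 0 passed the test. Their summed linear level was 60.1, 94.1, 76.2 and 67.5 in clones 1 to 4 and between 58.6 and 67.4 in normal calves. By this sum clones 2, 3 and 4 were above every normal calf and clone 1 was within their range. In the mean log2 level of the 9 genes relative to the normal calves, each gene counts equally. By this mean the clones were at 0.40, 1.02, 0.24 and 0.77 and the normal calves at most at 0.19. Every clone was thus above every normal calf with the percentile centring. The spike-in level was 1.66, 1.69, 2.06 and 1.92 in clones 1 to 4, against 0.97 to 1.46 in normal calves. That every clone lay above every normal calf therefore depends on the centring. With each array centred on its spike-ins, clones 1, 3 and 4 would no longer lie above every normal calf, while clone 2 would. MFAP5, a microfibril protein, and FBLN1, a fibulin of the matrix, had the largest differences of these 9, at 2.02 and 1.19 (adjusted p = 0.0907 for each). Each difference would be lower by 0.68 with arrays centred on the spike-ins. Of the 9, only MFAP5, FBLN1 and PI16 (1.13) would then be above 0. The receptors PDGFRA and PDGFRB, which define lung mesenchyme, were at 0.55 and 0.38, and the transcription factor TCF21 at -0.37. Of 6 smooth muscle markers 5 were below 0, with a summed level of 63.9 to 117 in clones and 83.0 to 111 in normal calves. All 6 measured cell cycle genes were above 0, and their summed level ran from 4.04 in clone 2 to 13.9 in clone 1, against 2.19 to 3.01 in normal calves. The 5 measured macrophage markers were all below 0, with a summed level of 47.6 to 202 in clones and 162 to 246 in normal calves. The 10 lung epithelial markers summed to 298 to 364 in clones and 311 to 354 in normal calves. Of these 10, 6 were above 0 and 4 below, with HOPX at -1.18 and SCGB1A1 at -1.81 (limma, adjusted p = 0.119 and 0.202). Their mean log2 level relative to the normal calves was -0.24, -0.33, -0.16 and -0.38 in clones 1 to 4. In the normal calves it was between -0.16 and 0.18. Each measured marker was detected on some arrays by construction, because only kept probes were used. Detection of the listed markers without a kept probe was not examined. The part of these cells in the collagen values was not tested.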

How the data were processed

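Lung RNA was hybridised to 1-colour Agilent bovine arrays, 1 per calf, with 4 clones and 4 normal calves grouped by sample title. Per the file headers, the deposited scanner files were written by Agilent Feature Extraction 10.7.3.1 on a design that names the build Btau_3.1, so no coordinates are given. The intensity used is the processed signal, from which, per the file headers, background was already subtracted, and the authors had not scaled it between arrays. The authors' deposited table holds log2 values per probe with the same 75th percentile in every column, by a step not given in the sources used here, and served as an alternative (r of 0.999 or more with the log2 signal of the matching array, medians 7.89). It gave nearly the same differences as quantile normalization for the genes given calf by calf, with 60 probes called in each. It is therefore not a check separate from quantile normalization.

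Control spots and spots with an outlier flag (2 to 21 of 43803 per array) were left out, none was saturated, and log2 signals were centred on the 75th percentile. Probes were named through RefSeq accessions (ARS-UCD2.0): 23492 had 1 symbol and 20161 none. The clone minus normal difference was fitted by lmFit and eBayes (limma 3.58.1, R 4.3.3, 2-sided), with Benjamini-Hochberg adjustment over all 35636 kept probes and a threshold of 0.05. Tested on simulated data of 35590 probes, the fit recovered 5 of 50 probes given a log2 change of 1, 25 of 50 given 2, 43 of 50 given 3 and 44 of 50 given 4, with 8 false calls. Genes and lists were chosen with earlier results of these data known. Genes given calf by calf were COL1A1, COL1A2, COL3A1, COL4A1, COL4A3, COL6A1, SERPINH1, PLOD2 and P4HA1 among those measured, the 3 smallest p of each class, and the 4 smallest p of the other pathway genes; P4HA3 was added after its values were seen, as were other genes named in passing. Replicates are separate calves, and their number limits the precision. The scanner files used here give no mean spot signal, so the normexp alternative used the median. The alternatives were other centring, background correction, filters, probe summaries, variance models, array weights, the authors' table, the replicate number as a block, and leaving out calves.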

Additional observations from a re-analysis of the deposited data

Results flagged for a closer look

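In 74 groups of 4 calves tested, 4 had 1 calf whose gap to the nearest other calf exceeded Dixon's 95% critical share of the whole range, which chance exceeds in about 5% of groups. All 4 were clone 3, as the lowest clone. Clone 3 stood at 3.10 in COL1A1, against 3.82 to 3.93 in the other clones, and at 0.29 in PCOLCE, against 1.65 to 1.91. It stood at 2.28 in PLOD3, against 2.78 to 2.85, and at 1.48 in CCN2, against 2.85 to 3.02. These genes come from the same array and are not independent of each other.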

How the results depend on the processing

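Of 457 values of 23 genes given calf by calf under alternatives, 399 kept their sign and their side of the threshold, 44 passed the test where they had not and 14 turned sign. Of the 44, array weights gave 18, leaving out both clones 1 and 3 gave 16, centring on the spike-ins gave 5, all lower in clones, leaving out clone 1 gave 3 and leaving out clone 3 gave 2. Of the 14, centring on the spike-ins gave 9: COL4A1 at -0.26, COL4A3 at -0.63, COL6A1 at -0.27, SERPINH1 at -0.21, PLOD2 at -0.47, P4HA1 at -0.11, COL15A1 at -0.086, COL6A2 at -0.041 and P3H1 at -0.0655. COL4A3 turned to -0.079 without clone 2, -0.28 without clone 4 and -0.0076 without normal calf 4, and ranged from -0.28 to 0.52 with 1 calf left out. PLOD2 turned to -0.072 without clone 1, ranged from -0.072 to 0.52 with 1 calf left out, and was -0.0185 with normexp background correction. Without both clones 1 and 3 the difference was 1.15 for COL3A1, 0.73 for COL4A3, 0.92 for P4HA1, 1.39 for COL15A1, 0.07 for SERPINH1 and -3.24 for P4HA3. The number of all probes called (63) was 0 with normexp, where the median of all probes moved by -0.30, 17 with a filter on all 8 arrays, 146 with trend and robust settings, 11524 with array weights, 13 with the replicate block and 23 with the mean of all kept probes of a gene. It ranged from 17 to 2562 with 1 calf left out, and was 11331 without both clones 1 and 3. Members called (0) were 16 with array weights, which gave clones 1 and 3 weights of 0.115 and 0.0985 and normal calf 4 a weight of 4.44, 13 without both clones 1 and 3, and 0 to 2 with 1 calf left out. Centring on the spike-ins called 4 members, all lower, and 28.7% of all probes, and the other settings, the replicate block among them, called 0. Members with an unadjusted p under 0.05 (10) numbered 6 with normexp, 7 with arrays centred on the spike-ins and 19 with array weights. They numbered 18 without both clones 1 and 3 and 6 to 15 with 1 calf left out. Pathway genes called (0) were 19, 17 and 0 to 4 in array weights, without both clones and with 1 calf left out. Fibrillar chains (median 0.41) were at 0.14 with normexp, 0.94 with the filter on all 8 arrays, which removes COL11A1 and COL11A2, 0.66 without both clones and 0.32 to 0.53 with 1 calf left out. With 1 calf left out the median of basement membrane chains was 0.33 to 0.83, of other chains 0.20 to 0.51 and of enzymes 0.29 to 0.58, and members above 0 numbered 19 to 20. Centring on the spike-ins moved the median of all probes by -0.68. Class medians were then -0.27 for fibrillar, -0.34 for other chains and -0.16 for enzymes, and 7 members were above 0. COL1A1 minus COL1A2 turned to -0.0336 with the mean of all probes and -0.15 without clone 3, and ranged from -0.15 to 0.38 with 1 calf left out. COL1A1 minus COL3A1 was 0.68 with quantile normalization and 0.33 to 0.65 with 1 calf left out, and COL4A1 minus COL4A3 0.09 to 0.61. Numbers in the titles did not pair calves: deviations of same-numbered clones and normal calves correlated at 0.09, 0.10, -0.20 and -0.10. Apart from effects of fewer probes or calves by construction, the cause of these changes was not tested. Slide as a block gave no value, since each slide held 1 group, and leaving out both clones 1 and 3 was chosen after the data were seen.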
